A study of Mus musculus with 46 samples.

Results

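The proteasome genes of the mouse liver were followed through dietary restriction (DR), rapamycin (Rapa) and their combination (Rapa + DR). They are all the probes on the array whose gene symbol starts with Psma, Psmb, Psmc, Psmd, Psme, Psmf or Psmg and a digit: 67 of 25697 probes, for 45 of the 16593 gene symbols on the array. Total RNA from the livers of 46 male C57BL6/J mice, 1 array per mouse, was hybridised to Illumina Mouse Ref8 arrays. The mice were 8 months old and had been on their diets for 6 months, from 2 months of age. The groups were 11 mice fed ad libitum (AL), 11 mice under 40% DR, 12 mice fed rapamycin at 14 ppm in the diet (Rapa) and 12 mice that received 14 ppm rapamycin together with 40% DR (Rapa + DR). The ration of the restricted mice is described in more than one way in the methods, and the label is used here. The restricted mice received their food at a set hour of the day, so meal timing and the amount of food cannot be told apart, and no group is labelled as given the capsules without rapamycin. In bulk liver, fewer cells of a type and less RNA per cell cannot be told apart.

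The 26S proteasome is the protease that degrades most ubiquitin-tagged proteins of the cell. Its barrel, the 20S core, is built of outer rings of alpha subunits (Psma genes), which gate the entrance, and inner rings of beta subunits (Psmb genes), some of which carry the proteolytic sites. In immune cells and under interferon, the inducible beta subunits Psmb8, Psmb9 and Psmb10 replace the constitutive catalytic ones to form the immunoproteasome. The 19S regulatory particle caps the barrel: its ring of ATPases (Psmc genes) unfolds the substrate, and its non-ATPase subunits (most Psmd genes) bind ubiquitin chains and remove them. The 11S activators (Psme1 to Psme3) and Psme4 can cap the barrel in place of the 19S particle and act without ATP, and the assembly chaperones (Psmg genes, Psmd5, Psmd9 and Psmd10) help build the complex without being part of it. In mammals the subunits are known for being transcribed together when the proteasome is inhibited, under the factor encoded by Nfe2l1.

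By class, the 45 genes were 7 of the alpha ring, 7 of the beta ring, 3 of the immunoproteasome, 6 ATPases, 10 non-ATPase subunits, 4 activators and 6 assembly chaperones, and 2 genes, Psmc3ip and Psme3ip1, which match by name but encode partners of these proteins and no subunits. A probe was tested where its signal was above the background limit on at least 11 arrays, the size of the smallest group. This left 56 probes for 41 genes, and the other 11 probes were not tested: the only probes of Psma1, Psma6, Psmc6 and Psmc3ip, and 1 probe each of Psma3, Psmb2, Psmd2, Psmd5, Psmd6, Psmd11 and Psme4, genes that kept another probe. Psma8, Psmb11, Psmd3, Psmf1 and Psmg4 were not analysed here. Levels are on a log2 scale of signal on which every array has the same mean and SD, and a level of 1 probe is not set against that of another. A probe was called where the limma adjusted p was under 0.05 over the 11595 probes tested and the group medians differed by over 15%. All p-values below are limma's, Benjamini-Hochberg adjusted, and changes are log2 differences of group means ± SE (11 or 12 mice a group).

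Upstream sequence bears on a group of genes known for shared transcription, so the bases before the annotated start are shown for 2 genes that were lower in Rapa + DR livers (Psmc2 and Psmd4) and for 2 assembly genes that were higher (Psmd9 and Psmd10). Each run is the 160 bases before the start in RefSeq (GRCm38.p6), read 5′ to 3′ on the strand of the gene. Capitals mark any match to 4 motifs searched on both strands: the antioxidant response element TGANTCAGC, its looser form TGACNNNGC, which also matches the first motif where its free base is C, the CCAAT box (ATTGG on the other strand) and the interferon-stimulated response element, a pair of TTTC runs with any 2 bases between them.
Psmc2 (chr5:21785115-21785274, plus strand): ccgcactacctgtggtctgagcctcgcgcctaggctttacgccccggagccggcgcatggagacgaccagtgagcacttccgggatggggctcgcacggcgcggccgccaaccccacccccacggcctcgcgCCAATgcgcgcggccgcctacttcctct
Psmd4 (chr3:95042615-95042774, minus strand): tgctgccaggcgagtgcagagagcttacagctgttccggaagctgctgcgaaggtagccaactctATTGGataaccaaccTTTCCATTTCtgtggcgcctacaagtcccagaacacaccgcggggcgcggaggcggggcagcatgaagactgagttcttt
Psmd9 (chr5:123228030-123228189, plus strand): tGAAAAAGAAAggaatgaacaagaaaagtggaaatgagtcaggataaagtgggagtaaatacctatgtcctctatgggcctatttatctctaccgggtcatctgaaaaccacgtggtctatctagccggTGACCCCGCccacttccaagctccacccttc
Psmd10 (chrX:140956712-140956871, minus strand): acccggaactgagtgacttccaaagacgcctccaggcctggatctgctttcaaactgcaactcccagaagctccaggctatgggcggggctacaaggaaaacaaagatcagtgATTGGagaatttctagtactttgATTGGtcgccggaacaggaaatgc
Promoters were matched for 39 of the 45 genes, with 43 starts. In the 250 bases before the start, CCAAT was present in 15 of these 43 promoters (34.9%), against 33.9% of all 32851 promoters of the RefSeq table. TGACNNNGC was present in 5 of 43 (11.6%, against 10.2% of all), in Psmb5, Psmb6, Psmc6, Psmd9 and Psmd12. The antioxidant response element TGANTCAGC was present in 0 of 43 (1.02% of all), and the interferon-stimulated response element in 3 of 43 (6.98%, against 2.98% of all), in Psmb3, Psmd4 and Psmd9. The shares of the first 2 motifs were near those of all promoters. CCAAT was in 5 of the 8 alpha ring promoters, which are those of Psma1, Psma2, Psma3, Psma6 and Psma7.

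With every array at the same mean and SD, the liver proteasome did not move as 1 block under any diet. In DR livers 12 of the 56 tested probes were higher and 4 lower than in AL livers, where 14.1% of all tested probes were higher and 8.51% lower. In Rapa livers 7 were higher and 5 lower (11.3% and 7.66% of all tested probes). In Rapa + DR livers 16 were higher and 9 lower (22.4% and 12.5% of all tested probes). By gene, each given by its brightest tested probe, 6 of 41 were higher and 4 lower in DR. The counts by gene were 2 and 3 in Rapa, and 6 and 9 in Rapa + DR. The median change of the 56 probes was 0.06 under DR, 0.004 under Rapa and 0.08 with both, against 0.02, -0.0002 and 0.02 over all tested probes. The 3 comparisons share the AL mice. The probes of Psma4, Psme2, 1 of 3 of Psmb7, 1 of 2 of Psmd7 and 1 of 3 of Psmd10 were higher in all 3, the probes of Psmc3 and 1 of 2 of Psme1 were lower in all 3, and 23 probes were called in none. The plot of the change of each probe shows the classes side by side.

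**Figure D1:**
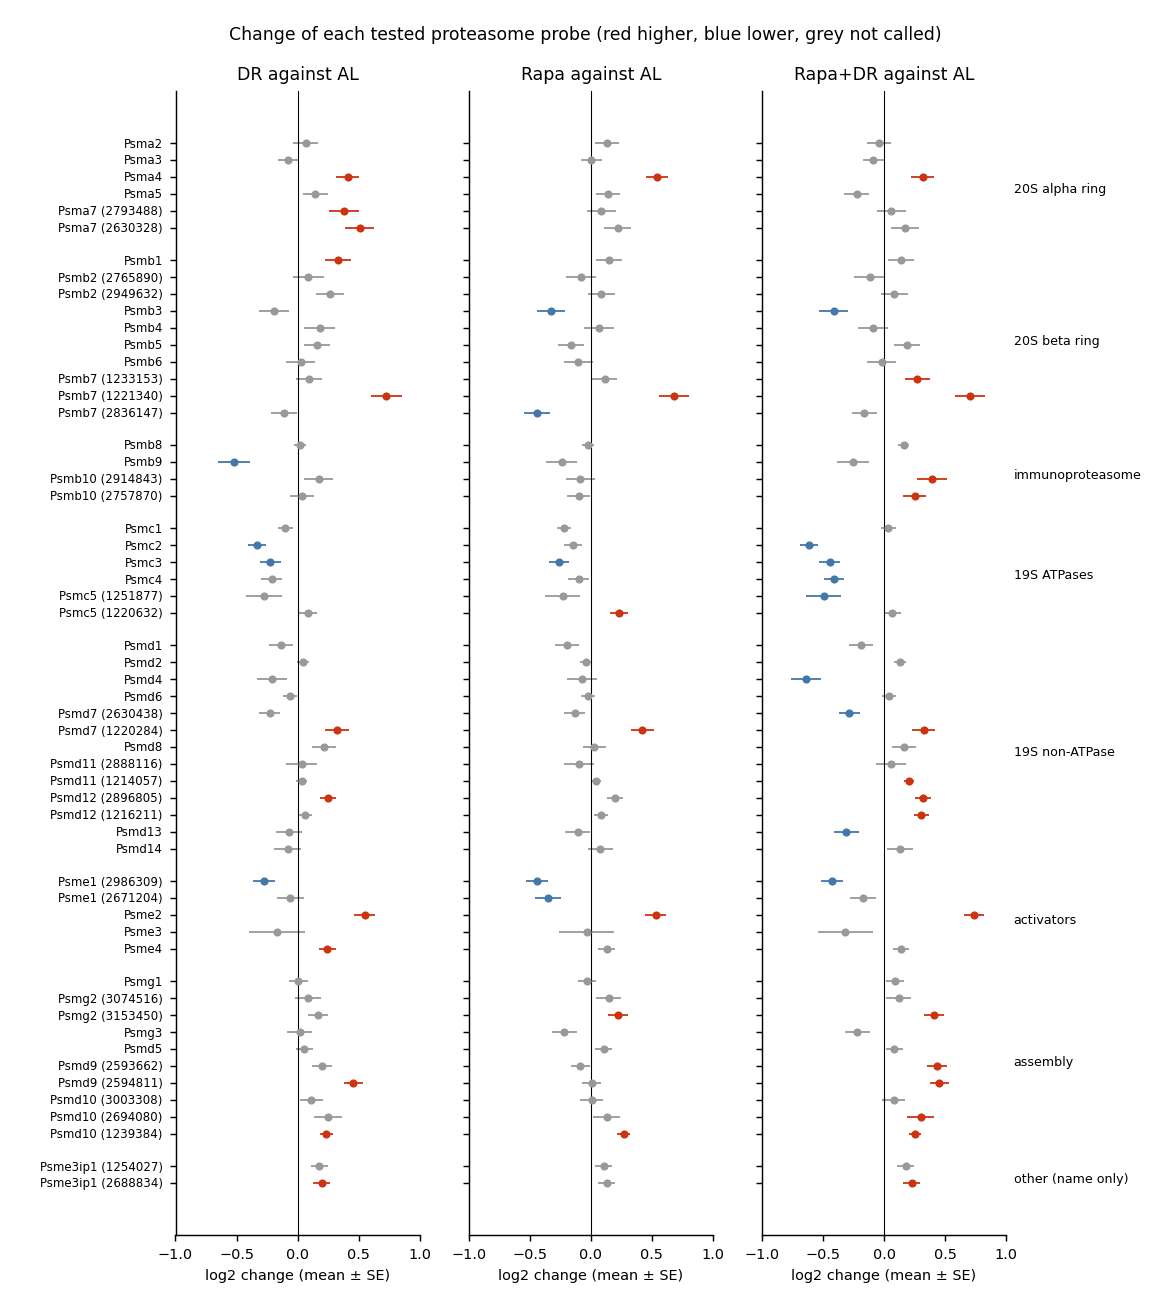
Change of each of the 56 tested proteasome probes against AL (x axis, log2 change, point and bar are the mean difference ± SE; 11 AL, 11 DR, 12 Rapa and 12 Rapa + DR mice), 1 row per probe, grouped by class. Red probes were called higher and blue probes lower. In Rapa + DR the 4 lower ATPase probes and the 5 higher assembly probes stand on opposite sides of 0. By brightest probe of each gene, 4 of 5 ATPases were lower and 1 of 6 assembly genes was higher.

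These directions are relative to each array's own spread, and that matters for the lower calls and for the split of the family. The authors divided every array by the SD of its log2 signals, and that SD was larger in the restricted groups (mean 1.38 ± 0.09 SD in DR and 1.41 ± 0.12 in Rapa + DR, 11 and 12 arrays) than in AL (1.28 ± 0.12, 11 arrays) and Rapa (1.28 ± 0.13, 12 arrays). When the arrays were only centred on their mean, with no division by the SD, 18 probes were higher and 1 lower in DR (16.4% and 3.98% of all tested probes), 5 and 1 in Rapa (7.89% and 4.35%), and 27 and 0 in Rapa + DR (27.4% and 6.65%). In Rapa + DR 45 of the 56 probes were then above 0, and the median change of the 56 was 0.27, against 0.06 over all tested probes. With quantile normalization 11 were higher and 5 lower in DR (12.0% and 12.0% of all tested probes), 8 and 5 in Rapa (11.2% and 10.7%), and 9 and 12 in Rapa + DR (17.8% and 17.9%). Of the 16 higher calls in Rapa + DR, 8 were also made under both of these scalings: both probes of Psmd9, 2 of Psmb7, and 1 each of Psma4, Psmd12, Psme2 and Psmg2. The 7 not made with quantile normalization were both probes of Psmb10, 2 of Psmd10 and 1 each of Psmd7, Psmd12 and Psme3ip1, and the 1 not made with centring alone was Psmd11. Of the 9 lower calls, 9 were also made with quantile normalization and 0 with centring alone. Centring alone also removed the lower calls in DR other than Psmb9, those in Rapa other than Psmb7, and the higher calls of Psmc5 and Psmg2 in Rapa. Whether the array spread is technical or belongs to the diet was not tested. The plot of the scalings shows each probe under both alternatives.

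**Figure D2:**
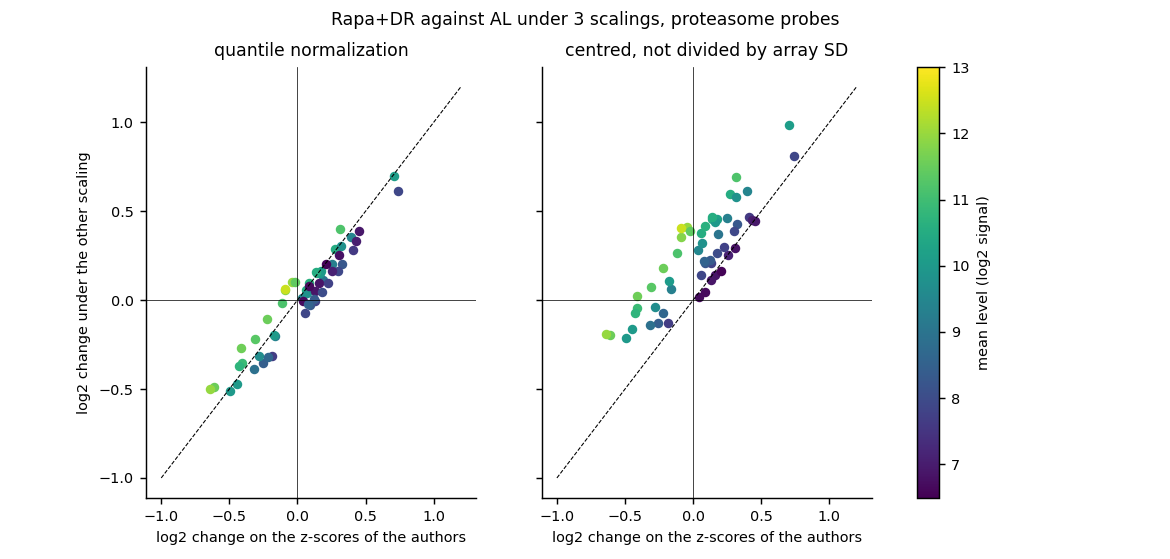
Log2 change of the 56 proteasome probes in Rapa + DR against AL on the z-scores of the authors (x axis of both panels) against the change after quantile normalization (left) or after centring alone (right), with the mean level as colour and equality as a dashed line. With centring alone 45 of the 56 probes lie above 0 on the y axis, against 35 on the x axis, and 0 were called lower.

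In Rapa + DR livers 4 of the 6 tested probes of the ATPase ring were lower (Psmc2, Psmc3, Psmc4 and 1 of 2 of Psmc5), 0 were higher, and the median change was -0.43. In this comparison 12.5% of all tested probes were lower and 22.4% higher. The other 5 of the 9 lower calls lay among the non-ATPase subunits (3), the beta ring (1) and the activators (1). Psmc2 and Psmc3 were also lower in DR, and Psmc3 was lower in Rapa. With centring alone all 4 stayed below 0 in Rapa + DR, at -0.20, -0.16, -0.05 and -0.21, and none was called (adjusted p = 0.18, 0.39, 0.77 and 0.45).

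Psmc2, an ATPase that helps to open the barrel and unfold substrates (chr5:21785275-21803787, GRCm38.p6), had a lowest, median and highest level of 11.49, 11.83 and 12.10 in AL mice, 11.17, 11.48 and 11.86 in DR, 11.43, 11.64 and 12.11 in Rapa, and 10.99, 11.23 and 11.42 in Rapa + DR. All 12 Rapa + DR mice lay below all 11 AL mice and below all 12 Rapa mice, while the DR mice overlapped with both AL and Rapa + DR. The change was -0.61 ± 0.07 in Rapa + DR (adjusted p = 6.65e-09), where the level fell by 34.6%, and -0.33 ± 0.075 in DR (adjusted p = 0.000758). It was -0.15 ± 0.07 in Rapa (adjusted p = 0.143). Adding rapamycin to DR lowered it by a further -0.28 ± 0.07 (adjusted p = 0.0185), and adding DR to rapamycin by -0.47 ± 0.07 (adjusted p = 2.04e-06). Its medians stood in the order AL, Rapa, DR, Rapa + DR, and neither Rapa against AL nor DR against Rapa (-0.18 ± 0.07, adjusted p = 0.0733) was called. With centring alone Psmc2 was called in none of these comparisons: the difference from AL was -0.01 in DR (adjusted p = 0.96), and Rapa + DR differed from DR by -0.19 (adjusted p = 0.49) and from Rapa by -0.02 (adjusted p = 0.90).

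Psmc4, another ATPase of the ring, ran from 10.82 to 11.33 with a median of 11.17 in AL and from 10.37 to 10.94 with a median of 10.73 in Rapa + DR. The DR mice lay between 10.52 and 11.21 (median 10.95) and the Rapa mice between 10.67 and 11.35 (median 11.07). The groups overlapped, and all 12 Rapa + DR mice lay below the AL median. The change was -0.41 ± 0.08 in Rapa + DR (adjusted p = 9.22e-05) and -0.21 ± 0.09 in DR (adjusted p = 0.0587). Psmc3 was lower under every diet: its medians were 10.30 in AL, 10.00 in DR, 9.92 in Rapa and 9.78 under Rapa + DR, and its changes were -0.22 ± 0.08, -0.26 ± 0.08 and -0.45 ± 0.08 (adjusted p = 0.0423, 0.0188 and 2.44e-05). The ranges of all 4 groups overlapped.

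The other ATPases showed that the ring was not uniform. The probes of Psmc5 disagreed: ILMN_1251877 was lower in Rapa + DR (-0.50 ± 0.14, adjusted p = 0.00459), and ILMN_1220632 was higher in Rapa (0.23 ± 0.07, adjusted p = 0.0159) with 0.07 ± 0.07 in Rapa + DR. Psmc1 had medians of 9.60 in AL, 9.50 in DR, 9.41 in Rapa and 9.65 under Rapa + DR. It was 0.26 ± 0.06 higher in Rapa + DR than in Rapa (adjusted p = 0.000715), and 11 of 12 Rapa + DR mice lay above the Rapa median. In Rapa against AL its adjusted p was 0.00602 with a change of -0.22 ± 0.06, but the medians differed by less than 15%.

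Of the non-ATPase subunits, 13 probes for 10 genes were tested, and they split. In Rapa + DR 4 probes were higher (Psmd7, Psmd11 and both of Psmd12), 3 were lower (Psmd4, Psmd13 and the other probe of Psmd7), and the median was 0.13. Of all tested probes 22.4% were higher and 12.5% lower in this comparison. The largest change of the whole family downwards was that of Psmd4, the ubiquitin-chain receptor of the regulatory particle (chr3:95032688-95042614). Its levels ran from 11.82 to 12.44 (median 12.21) in AL, from 11.48 to 12.77 (median 11.96) in DR, from 11.29 to 12.68 (median 12.28) in Rapa and from 11.16 to 11.91 (median 11.64) in Rapa + DR. The Rapa + DR mice were the low group, all 12 below the AL median, and the highest DR mouse was above every AL mouse. Psmd4 was lower in Rapa + DR than in AL by -0.64 ± 0.12 (adjusted p = 4.39e-05), than in DR by -0.43 ± 0.12 (adjusted p = 0.0376) and than in Rapa by -0.57 ± 0.12 (adjusted p = 0.000285). With centring alone the difference from AL was -0.19 (adjusted p = 0.085) and that from DR -0.33 (adjusted p = 0.036).

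Psmd12, a scaffold subunit of the lid that holds the deubiquitinase, rose in Rapa + DR with both of its probes (0.32 ± 0.06 and 0.31 ± 0.06, adjusted p = 9.02e-05 and 2.91e-05). The brighter probe, ILMN_2896805, had a lowest, median and highest level of 9.31, 9.61 and 9.87 in AL, 9.61, 9.84 and 10.06 in DR, 9.45, 9.80 and 10.17 in Rapa, and 9.73, 9.93 and 10.21 in Rapa + DR. All 11 DR mice and all 12 Rapa + DR mice lay above the AL median, and it also rose in DR (0.25 ± 0.07, adjusted p = 0.0037). The other probe, ILMN_1216211, was 0.06 ± 0.06 in DR and was higher in Rapa + DR than in DR (0.25 ± 0.06, adjusted p = 0.0102). Psmd11, another lid subunit, was higher in Rapa + DR with its dimmer tested probe (0.21 ± 0.04, adjusted p = 0.000122), which was above the background limit on 26 of the 46 arrays, while the other tested probe stood at 0.06 ± 0.12. Psmd13 was lower in Rapa + DR (-0.31 ± 0.10, adjusted p = 0.0112), and turned to 0.08 with centring alone. The remaining genes of the class, Psmd1, Psmd2, Psmd6, Psmd8 and Psmd14, the last of which is the deubiquitinase, were called in no comparison with AL.

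**Figure D3:**
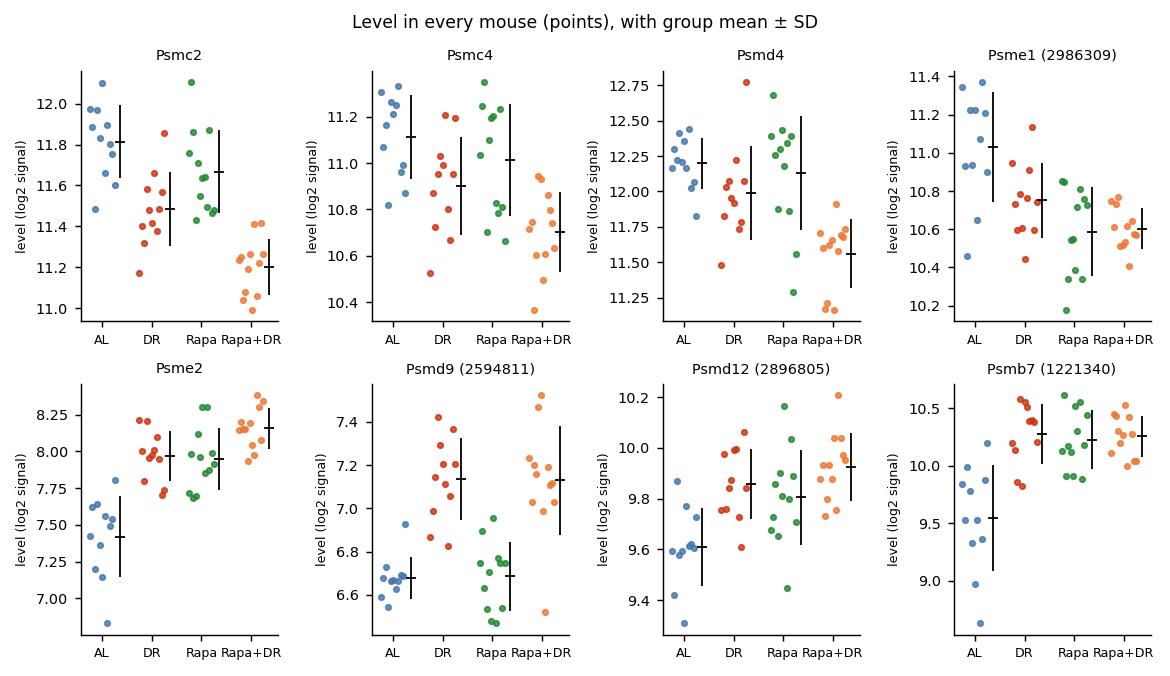
Level of 8 proteasome probes in every mouse (y axis, log2 signal at a common spread; each panel has its own range), with the group mean ± SD beside the points. The 12 Rapa + DR points of Psmc2 lie below all 11 AL points, and those of Psme2 lie above all 11 AL points.

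In the alpha ring 3 of the 6 tested probes were higher in DR, 1 in Rapa and 1 under Rapa + DR, and 0 were lower than AL. Of all tested probes 14.1%, 11.3% and 22.4% were higher in these groups, and 8.51%, 7.66% and 12.5% lower. Psma4 (chr9:54950781-54958034) rose in all 3 groups. Its levels ran from 10.46 to 11.19 (median 10.88) in AL, from 11.04 to 11.60 (median 11.32) in DR, from 11.01 to 11.82 (median 11.37) in Rapa and from 10.92 to 11.59 (median 11.13) in Rapa + DR. Every treated mouse lay above the AL median, and each treated group overlapped with AL. The changes were 0.41 ± 0.09 in DR, 0.54 ± 0.09 in Rapa and 0.32 ± 0.09 under Rapa + DR (adjusted p = 0.000825, 3.56e-05 and 0.00421). The last was lower than the change in Rapa alone by -0.23 ± 0.09 (adjusted p = 0.047), a difference that turned to 0.20 with centring alone.

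Psma7 rose in DR with both of its probes (0.51 ± 0.12 and 0.38 ± 0.12, adjusted p = 0.000824 and 0.0169), and all 11 DR mice lay above the AL median with each. ILMN_2630328 had medians of 10.07 in AL, 10.47 in DR, 10.26 in Rapa and 10.18 under Rapa + DR, and the last 2 were not called against AL (0.22 ± 0.11 and 0.17 ± 0.11, adjusted p = 0.161 and 0.215). Psma5 was not called against AL in DR and Rapa (0.14 ± 0.10 in both, adjusted p = 0.308 and 0.334) and lower in Rapa + DR than in either single treatment, by -0.37 ± 0.10 against DR and -0.36 ± 0.10 against Rapa (adjusted p = 0.0241 and 0.00367). Its highest level was 11.47 among the 12 Rapa + DR mice, where the DR median was 11.63 and the Rapa median 11.66. The second of these differences turned to 0.09 with centring alone. Psma2 and Psma3 were called in no comparison with AL.

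In the beta ring, 10 tested probes, the largest changes were those of Psmb7, the constitutive subunit with the trypsin-like site (chr2:38588046-38643952), whose 3 probes did not move together. ILMN_1221340 had a lowest, median and highest level of 8.63, 9.53 and 10.20 in AL, 9.83, 10.38 and 10.58 in DR, 9.89, 10.18 and 10.61 in Rapa, and 10.00, 10.27 and 10.53 in Rapa + DR. The AL mice were the spread-out and low group, and every treated mouse lay above their median. The changes were 0.73 ± 0.13, 0.68 ± 0.12 and 0.71 ± 0.12 (adjusted p = 2.24e-05, 0.000101 and 9.87e-06). ILMN_2836147 was lower in Rapa (-0.44 ± 0.10, adjusted p = 0.00184) and not called in the other 2 groups, and ILMN_1233153 was higher in Rapa + DR only (0.27 ± 0.11, adjusted p = 0.0311). Of the other beta subunits, Psmb1 was higher in DR (0.33 ± 0.11, adjusted p = 0.0179), and Psmb3 was lower in Rapa (-0.33 ± 0.12, adjusted p = 0.036) and Rapa + DR (-0.41 ± 0.12, adjusted p = 0.0035). The medians of Psmb3 were 11.93 in AL, 11.64 in both DR and Rapa and 11.37 in Rapa + DR, and with centring alone its change in Rapa + DR turned to 0.02. Psmb5, which carries the chymotrypsin-like site, was called in no comparison with AL and was higher in Rapa + DR than in Rapa (0.34 ± 0.11, adjusted p = 0.00998). Psmb2, Psmb4 and Psmb6, the last of which carries the caspase-like site, were not called in any of the 6 comparisons of groups.

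The inducible subunits differed from each other. Psmb9 (chr17:34182030-34187330) was lower in DR: its levels ran from 8.22 to 9.30 (median 8.74) in AL and from 7.48 to 8.77 (median 8.16) in DR, with overlap, and 10 of 11 DR mice lay below the AL median. The change was -0.52 ± 0.13 (adjusted p = 0.00261), and it was -0.42 with centring alone (adjusted p = 0.041). In Rapa and Rapa + DR it was -0.24 ± 0.13 and -0.25 ± 0.13 (adjusted p = 0.181 and 0.102). Psmb10, the inducible counterpart of Psmb7, was higher in Rapa + DR with both probes (0.39 ± 0.12 and 0.25 ± 0.09, adjusted p = 0.0064 and 0.0269), and higher than in Rapa (0.48 ± 0.12 and 0.35 ± 0.09, adjusted p = 0.00148 and 0.00296). ILMN_2914843 had medians of 9.48 in AL, 9.55 in DR, 9.27 in Rapa and 9.72 under Rapa + DR, and all 12 Rapa + DR mice lay above the Rapa median. Psmb8 was near background: its adjusted p in Rapa + DR was 0.00473 with a change of 0.16 ± 0.05, and the medians differed by less than 15%.

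Psmb9 lies beside the peptide transporter genes Tap1 and Tap2 in the major histocompatibility region. Tap1 and Tap2 were also lower in DR (-0.27 ± 0.06 and -0.29 ± 0.10, adjusted p = 0.000901 and 0.0289), as was the interferon-induced GTPase Irgm1 (-0.43 ± 0.10, adjusted p = 0.0016). With each gene given by its brightest probe, these were the 3 lower among 12 tested genes of antigen processing and interferon response in DR, and 0 were higher (8.51% and 14.1% of all tested probes were lower and higher). The probe of Tap1 stood near background (medians 6.74 to 7.03). In Rapa 2 of the 12 were higher, Calr (0.68 ± 0.13, adjusted p = 0.000175) and Pdia3 (0.33 ± 0.12, adjusted p = 0.046), and 0 lower (11.3% and 7.66% of all tested probes). In Rapa + DR 2 were higher and 2 lower (22.4% and 12.5% of all tested probes): the class I heavy chains H2-K1 and H2-D1 were higher (0.39 ± 0.08 and 0.32 ± 0.10, adjusted p = 0.000189 and 0.00993), and Tap1 and Pdia3 were lower (-0.20 ± 0.06 and -0.35 ± 0.12, adjusted p = 0.00588 and 0.0185). Of 8 tested macrophage markers 2 were lower in DR (Clec4f and C1qb), with 0 higher. In Rapa and in Rapa + DR 4 of 8 were lower (Clec4f, C1qa, C1qb and C1qc), with 0 higher. Adgre1, Marco, Timd4 and Vsig4 were not called against AL, and stood at 0.07, 0.13, 0.06 and -0.22 in Rapa + DR. For this and the following marker counts, 8.51%, 7.66% and 12.5% of all tested probes were lower in DR, Rapa and Rapa + DR. The shares of higher probes were 14.1%, 11.3% and 22.4%. Clec4f, a lectin of Kupffer cells, changed by -0.54 ± 0.13, -0.61 ± 0.13 and -0.70 ± 0.13 (adjusted p = 0.00152, 0.000474 and 1.69e-05). Its dimmer probe, ILMN_2876653, stood at -0.01, -0.09 and -0.11 and was not called against AL. The mean level of the 8 macrophage markers ran from 7.80 to 8.34 in AL, 7.15 to 8.05 in DR, 7.45 to 8.07 in Rapa and 7.23 to 8.08 in Rapa + DR. Of 10 lymphocyte markers on the array only Cd3e and Cd79b were tested, and their medians stood at the background edge, between 6.46 and 6.62 in all 4 groups. Against AL, 1 of 7 tested endothelial markers was higher in DR and in Rapa + DR (Fcgr2b), and 3 were lower in Rapa (Clec4g, Stab1 and Stab2) and 1 in Rapa + DR (Clec4g). Of 4 stellate markers 1 (Reln) was higher in Rapa + DR, and 0 of 2 cholangiocyte markers were called against AL, while 1 of them, Sox9, was lower in Rapa + DR and in DR than in Rapa (-0.27 ± 0.04 and -0.23 ± 0.04, adjusted p = 3.03e-06 and 7.84e-05). The probe of Sox9 also stood near background (medians 6.47 to 6.70). The part of these cells in the changes of Psmb9 and Psmb10 was not tested. The label liver was borne out by Apoa1, Ttr, Trf and Cyp2e1, whose medians were 14.82 or higher in every group, while the probe of Alb stood near background (medians 6.46 to 6.70). Of 8 tested hepatocyte markers, by brightest probe, Alb was higher in DR (0.19 ± 0.05, adjusted p = 0.00174), and 0 were called in Rapa. In Rapa + DR Cps1 was higher (0.65 ± 0.22, adjusted p = 0.0144) and Apoa1 lower (-0.73 ± 0.28, adjusted p = 0.0278). The median change of the 8 was -0.31, -0.05 and -0.32 in DR, Rapa and Rapa + DR.

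Among the activators, Psme1 and Psme2, neighbours on chromosome 14 (chr14:55578494-55581527 and chr14:55587440-55591101), encode the alpha and beta subunits of the same 11S ring. The probe of Psme2 was higher and 1 of 2 probes of Psme1 lower in all 3 comparisons with AL. Psme2 had a lowest, median and highest level of 6.83, 7.49 and 7.80 in AL, 7.70, 7.98 and 8.21 in DR, 7.68, 7.94 and 8.30 in Rapa, and 7.93, 8.15 and 8.38 in Rapa + DR. All 12 Rapa + DR mice lay above all 11 AL mice, and the DR and Rapa mice overlapped with AL only at its top. The changes were 0.55 ± 0.09, 0.53 ± 0.08 and 0.74 ± 0.08 (adjusted p = 3.67e-06, 1.72e-05 and 1.9e-09), which are increases of 46.3%, 44.4% and 66.8%, and with centring alone they were 0.59, 0.50 and 0.81.

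Psme1 probe ILMN_2986309 had a lowest, median and highest level of 10.46, 11.07 and 11.37 in AL, 10.44, 10.74 and 11.14 in DR, 10.18, 10.63 and 10.85 in Rapa, and 10.41, 10.59 and 10.77 in Rapa + DR. The treated groups overlapped with AL, and all 12 Rapa and all 12 Rapa + DR mice lay below its median. The changes were -0.28 ± 0.09, -0.44 ± 0.09 and -0.43 ± 0.09 (adjusted p = 0.0167, 0.000288 and 0.000107). The second probe, ILMN_2671204, was called lower in Rapa only (-0.35 ± 0.11, adjusted p = 0.0144), with -0.06 ± 0.11 in DR and -0.17 ± 0.11 in Rapa + DR. With centring alone the first probe was called in none of the 3 (-0.0045, -0.44 and -0.07, adjusted p = 0.99, 0.063 and 0.75), while Psme2 was called higher in all 3 under this scaling too. Psme4, the large nuclear activator, rose in DR (0.24 ± 0.07, adjusted p = 0.00754), with all 11 DR mice above the AL median. Psme3 was called in no comparison, and its range spanned over 1 unit of log2 level in each group.

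The assembly chaperones had no lower call. In Rapa + DR 5 of 10 tested probes were higher, for Psmd9 (both probes), Psmd10 (2 of 3) and Psmg2 (1 of 2), and the median was 0.19. By brightest probe, 1 of the 6 assembly genes was higher and 0 lower. Of all tested probes 22.4% were higher and 12.5% lower in this comparison. Psmd9, a chaperone of the ATPase ring (chr5:123228190-123250126), was higher in both restricted groups. Probe ILMN_2594811 had a lowest, median and highest level of 6.54, 6.67 and 6.93 in AL, 6.83, 7.14 and 7.42 in DR, 6.47, 6.73 and 6.96 in Rapa, and 6.52, 7.14 and 7.52 in Rapa + DR. In AL and Rapa the levels of this probe were near background. The AL and Rapa mice overlapped, every DR mouse lay above the medians of both, and 1 Rapa + DR mouse, the one at 6.52, lay below them. The change was 0.46 ± 0.08 in DR and 0.45 ± 0.08 in Rapa + DR (adjusted p = 1.69e-05 and 5.31e-06), and 0.01 ± 0.08 in Rapa (adjusted p = 0.965). DR was higher than Rapa by 0.45 ± 0.08 (adjusted p = 1.75e-05). The second probe, ILMN_2593662, gave 0.20 ± 0.08, -0.09 ± 0.08 and 0.43 ± 0.08 in DR, Rapa and Rapa + DR (adjusted p = 0.0648, 0.481 and 2.19e-05), and was higher in DR than in Rapa (0.28 ± 0.08, adjusted p = 0.00887). Both probes were also higher in Rapa + DR than in Rapa (0.45 ± 0.07 and 0.52 ± 0.08, adjusted p = 8.88e-06 and 1.35e-06), and these calls were also made under both other scalings. The 2 calls of Psmd9 and that of Psmb7 probe ILMN_2836147 were the 3 higher calls in DR against Rapa, with 0 lower (8.94% and 5.79% of all tested probes were higher and lower). With centring alone 17 were higher and 0 lower (14.3% and 3.29%), and with quantile normalization 3 and 2 (8.41% and 7.55%).

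Psmd10, known as gankyrin and also a chaperone of the ATPase ring, was called higher under every diet with probe ILMN_1239384. Its medians were 6.93 in AL, 7.17 in DR, 7.14 in Rapa and 7.22 under Rapa + DR, every treated mouse lay above the AL median, and the changes were 0.23 ± 0.05, 0.27 ± 0.05 and 0.26 ± 0.05 (adjusted p = 0.000526, 0.000151 and 5.65e-05). With quantile normalization it was called in Rapa alone: the changes in DR and Rapa + DR were 0.19 and 0.16 (adjusted p = 0.011 and 0.017), with medians that did not differ by over 15%. ILMN_2694080 was higher in Rapa + DR only (0.30 ± 0.11, adjusted p = 0.0227), and ILMN_3003308 in none. Psmg2, which with Psmg1 guides the alpha ring, rose in Rapa (0.22 ± 0.08, adjusted p = 0.0412) and Rapa + DR (0.41 ± 0.08, adjusted p = 6.2e-05) with 1 of 2 probes, and Psmg1, Psmg3 and Psmd5 were not called.

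The combination was also compared with each single treatment. Against DR alone, Rapa + DR livers had 1 higher probe (Psmd12) and 3 lower (Psma5, Psmc2 and Psmd4), where 2.47% and 0.474% of all tested probes were called. Against Rapa alone they had 10 higher and 5 lower (14.6% and 7.54% of all tested probes). The 10 were both probes of Psmb10 and of Psmd9 and 1 each of Psmb5, Psmb7, Psmc1, Psmd11, Psmd12 and Psme2, and the 5 were Psma4, Psma5, Psmc2, Psmc4 and Psmd4. With centring alone 1 was higher and 1 lower against DR (2.18% and 0.0517% of all tested probes), and 18 and 0 against Rapa (23.4% and 4.42%). With quantile normalization these counts were 0 and 3 (2.36% and 1.06%) and 5 and 5 (11.6% and 10.4%). Against DR, Psma5 and Psmc2 were not called with centring alone, and Psmd12 was not called with quantile normalization.

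In 6 probes the change in Rapa + DR departed from the sum of the changes in DR and in Rapa (the interaction term of the fit). It was below the sum for 5 and above it for 1, where 1.65% and 1.70% of all tested probes departed. The 5 were Psma4 (-0.63 ± 0.13, adjusted p = 0.00501), Psmb7 probe ILMN_1221340 (-0.70 ± 0.18, adjusted p = 0.0204), Psma5 (-0.51 ± 0.14, adjusted p = 0.0337), Psma7 probe ILMN_2630328 (-0.55 ± 0.16, adjusted p = 0.0407) and Psmd10 probe ILMN_1239384 (-0.25 ± 0.07, adjusted p = 0.0408). For these probes of Psma4, Psmb7 and Psmd10 the level rose in each single treatment, and Rapa + DR differed from DR by -0.09 ± 0.09, -0.02 ± 0.12 and 0.02 ± 0.05, none of them called. The other probes of Psmb7 had interactions of the opposite sign, 0.39 ± 0.15 and 0.07 ± 0.15, and were not called (adjusted p = 0.121 and 0.84). The second probe of Psma7 stood at -0.41 ± 0.17 (adjusted p = 0.162). The other probes of Psmd10 were not called either. Psmc1 was above the sum (0.36 ± 0.08, adjusted p = 0.0138): it was lowest in Rapa, and stood at 0.04 ± 0.06 against AL in Rapa + DR (adjusted p = 0.649). With centring alone 0 of the 56 probes departed from the sum, and 0.405% and 0.0862% of all tested probes were above and below it. With quantile normalization 2 were above and 6 below (2.97% and 3.26%).

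**Figure D4:**
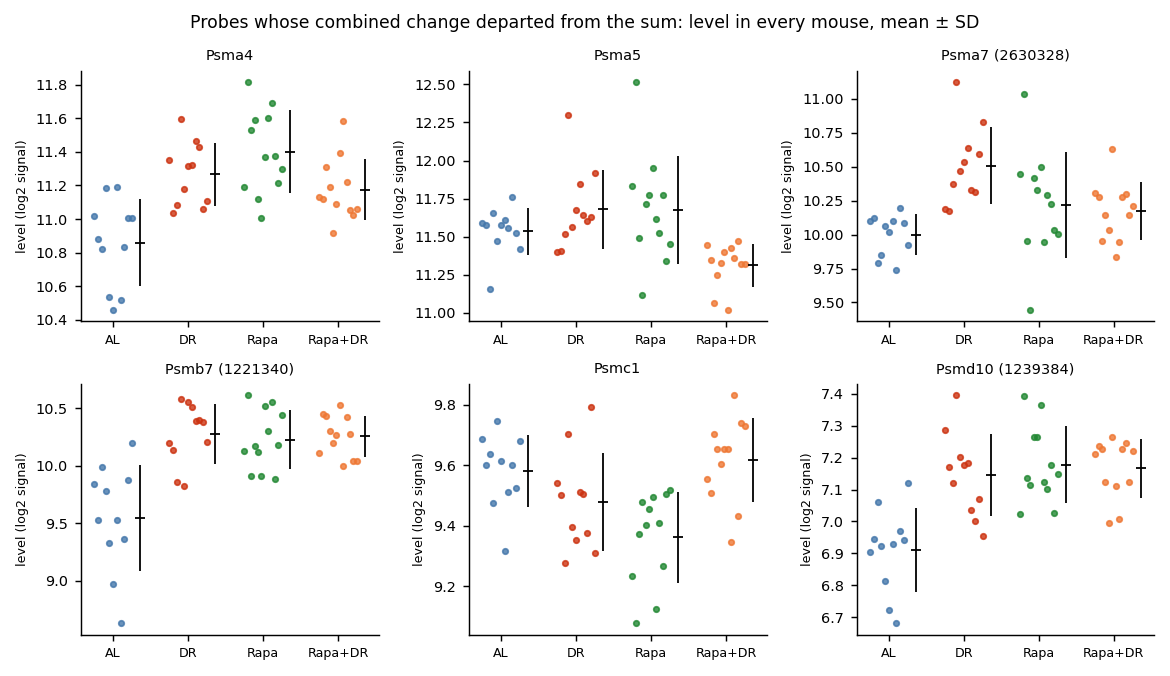
Level in every mouse (y axis, log2 signal at a common spread, each panel with its own range) of the 6 probes whose change in Rapa + DR departed from the sum of the 2 single changes, with group mean ± SD. All treated mice stand above the AL median for Psma4, Psmb7 and Psmd10, and the Rapa + DR points of Psma5 lie below the medians of the other groups.

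Different probes of a gene often gave different answers. Of 13 genes with more than 1 tested probe, the signs differed in 3 genes in DR, 6 in Rapa and 4 under Rapa + DR. For the interaction the signs differed in 6 genes. In Rapa 1 gene was called in both directions (Psmb7), and in Rapa + DR 1 (Psmd7). In Rapa + DR some probe was called in 11 of the 13 genes and every tested probe in 4: Psmb10, Psmd9 and Psmd12 with both probes higher, and Psmd7 with 1 higher and 1 lower. For Psmd7, a lid subunit, ILMN_1220284 had medians of 8.04, 8.32, 8.35 and 8.33 in AL, DR, Rapa and Rapa + DR and rose in all 3 groups (0.32 ± 0.10, 0.42 ± 0.10 and 0.33 ± 0.10, adjusted p = 0.012, 0.00114 and 0.00488), while ILMN_2630438 had medians of 9.82, 9.65, 9.72 and 9.60 and was lower in Rapa + DR (-0.28 ± 0.09, adjusted p = 0.00589). Which transcripts each probe binds was not analysed here.

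**Figure D5:**
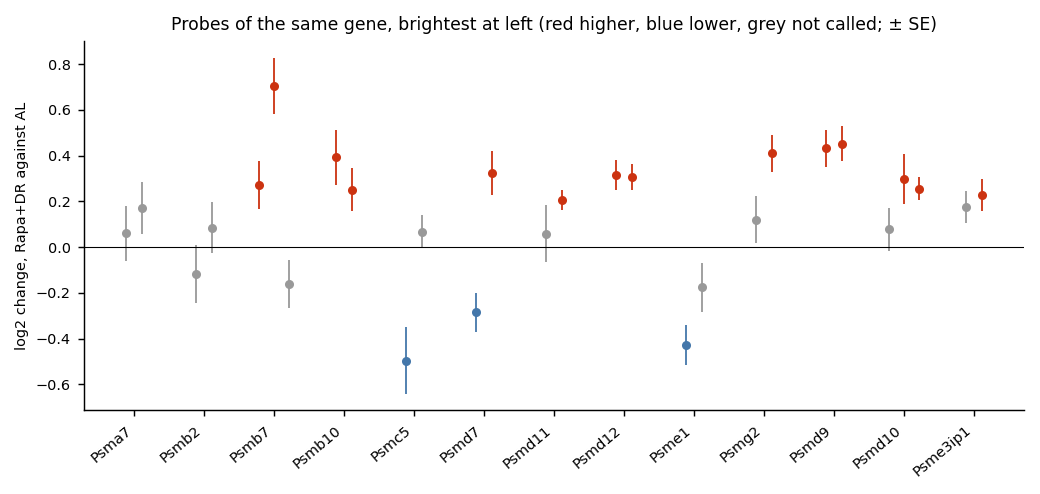
Change in Rapa + DR against AL (y axis, log2 change, mean difference ± SE, 12 and 11 mice) of each tested probe of the 13 genes with more than 1, brightest probe at left. Red probes were called higher, blue lower and grey not called, and the 2 probes of Psmd7 stand on opposite sides of 0.

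Within groups, the core genes varied together from mouse to mouse more than the ATPases, as a description. Over the deviations of the 46 arrays from their group means, with the brightest probe of each gene, the 66 pairs of 12 alpha and beta ring genes had a median Pearson correlation of 0.49 and a median Spearman correlation of 0.36, and 90.9% of the pairs were above 0. Over all pairs of tested probes the median Pearson correlation was 0.04. The 10 pairs of 5 ATPases had medians of -0.11 and -0.14, and pairs of a core gene with an ATPase 0.05 and 0.07. With the array SD also removed, the core pairs stood at 0.56 and 0.41, the ATPase pairs at 0.10 and 0.11, and all tested probes at 0.00. The genes of a pair share their array and its normalization.

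Genes that work with the proteasome were followed as well. Of 8 tested partners, each by its brightest probe, 5 were higher and 1 lower in Rapa + DR (22.4% and 12.5% of all tested probes), with a median of 0.26, against 0.02 over all tested probes. The higher ones were Sem1, the small lid subunit (0.49 ± 0.16, adjusted p = 0.009), Uchl5, a deubiquitinase of the particle (0.46 ± 0.11, adjusted p = 0.000871), Ecpas, an adaptor that binds the 26S complex (0.44 ± 0.12, adjusted p = 0.00236), and Fbxo7 and Ube3c, both ubiquitin ligase components. Zfand2a was lower (-0.37 ± 0.07, adjusted p = 3.49e-05), and Pomp, the chaperone of core maturation, stood at -0.18 ± 0.13 (adjusted p = 0.258). Of 8 tested genes of the p97 segregase and the ubiquitin shuttles, 3 were lower in Rapa + DR and 0 higher, against the same 12.5% and 22.4% of all tested probes: Vcp (-0.65 ± 0.13, adjusted p = 5.06e-05), which unfolds proteins for the proteasome, its cofactor Nploc4 (-0.37 ± 0.11, adjusted p = 0.00604) and the shuttle Ubqln1 (-0.42 ± 0.05, adjusted p = 3.02e-08). Ubqln1 had medians of 11.07 in AL, 10.63 in DR, 10.95 in Rapa and 10.65 under Rapa + DR, and it was lower in DR too (-0.40 ± 0.06, adjusted p = 3.22e-07). Its dimmer probes ILMN_2479786 and ILMN_2482555 stood at -0.10 and 0.03 in Rapa + DR and were not called. Vcp was also lower in DR (-0.40 ± 0.13, adjusted p = 0.0179), and Nploc4 in Rapa (-0.35 ± 0.11, adjusted p = 0.0201). Genes outside the proteasome family were not compared under the other scalings. Of 8 tested transcriptional regulators, 1 was higher and 1 lower in Rapa + DR, against 22.4% and 12.5% of all tested probes. Mafg was higher (0.64 ± 0.17, adjusted p = 0.00157) and Keap1 lower (-0.31 ± 0.10, adjusted p = 0.00689). The 4 tested probes of Keap1 disagreed: a second one was lower too (-0.24 ± 0.08, adjusted p = 0.0103), and the other two stood at 0.10 ± 0.09 and 0.09 ± 0.07 and were not called. Nfe2l1 itself stood at -0.11 ± 0.11, -0.07 ± 0.10 and -0.13 ± 0.10 in DR, Rapa and Rapa + DR (adjusted p = 0.467, 0.695 and 0.336). By brightest probe, Nfe2l2 was the 1 regulator higher in Rapa (0.23 ± 0.07, adjusted p = 0.00897), with 0 lower. Its probe stood near background (medians 6.77 to 7.01). Over all 14 tested probes of these regulators, 2 were higher and 1 lower in Rapa. There 11.3% of all tested probes were higher and 7.66% lower. In DR 0 regulators were called.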

How the data were processed

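Total RNA of each liver was labelled with biotin and hybridised to Illumina arrays. The deposited values are a score: the authors took the log2 of Genome Studio signals, subtracted each array's mean and divided by its SD (a z-score). The SD and mean of each array were recovered from the steps between its values (signals were written to 1 decimal, and 100% of those under 2000 fell on such a step, within 0.1 of its width), and every z-score was multiplied by the mean SD (1.337) and shifted by the mean log2 signal (7.046), so that levels keep the authors' normalization. A further table of raw signals was not used, because its 92 columns are not tied to samples by the labels. Probe genes came from the platform annotation: 23978 probes had 1 symbol and 1719 had none.

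The background limit of an array was set from the mode and spread of its dim signals, with an upper tail of 0.02, and probes above it on at least 11 arrays were tested (11595 of 25697). Group means were fitted with limma (version 3.58.1, R 4.3.3; lmFit and eBayes, Benjamini-Hochberg adjustment over all tested probes), with 7 comparisons that include the interaction. The interaction was called on its adjusted p alone. The fit was tested on simulated data with independent noise for each probe and no difference in array SD between groups. That simulation therefore cannot bear on the choice of scaling. Replicates are separate mice. The named genes are members called one way in all 3 comparisons with AL, the most changed called member of each class and comparison, members with a called interaction, and Psmd9. The members and lists were chosen with earlier results of these data known. Other scalings, filters, covariates, array weights, a replicate block and ANOVA were run as alternatives, and the filter on at least 1 array was added after the data were seen. The number of arrays limits the precision.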

Additional observations from a re-analysis of the deposited data

Results flagged for a closer look

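For 6 probes the effect of rapamycin differed between AL-fed and restricted mice by the limma interaction term. For Psma4 the effect was 0.54 in AL-fed mice and -0.09 in restricted mice, a difference of -0.63. For Psma5 it was 0.14 and -0.37, a difference of -0.51, and for Psma7 probe ILMN_2630328 it was 0.22 and -0.34, a difference of -0.55. For Psmb7 probe ILMN_1221340 it was 0.68 and -0.02, a difference of -0.70. For Psmd10 probe ILMN_1239384 it was 0.27 and 0.02, a difference of -0.25. For Psmc1 it was -0.22 and 0.14, a difference of 0.36. Other probes of Psma7, Psmb7 and Psmd10 were not called, and those of Psmb7 had differences of 0.39 and 0.07. With centring alone (no division by the array SD), 0 of the 6 flagged probes were called, and the cause was not tested.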

How the results depend on the processing

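Counts of called probes are given as higher and lower, first for the 3 treated groups relative to AL (DR, then Rapa, then the combination), then for Rapa + DR relative to DR and relative to Rapa, and DR relative to Rapa, with the interaction as above and below the sum. With centring alone (no division by the array SD) they were 18 and 1, 5 and 1, 27 and 0, 1 and 1, 18 and 0, and 17 and 0, with 0 and 0 for the interaction. Members above 0 went from 35 to 45 of 56 in Rapa + DR against AL, from 31 to 52 against Rapa, and from 35 to 46 in DR against Rapa. Among the member comparisons called on the deposited scores or under this scaling, 11 changed sign. In Rapa + DR against AL these were Psma2 (0.41), Psmb4 (0.40), Psmb6 (0.39), Psmd13 (0.076) and Psmb3 (0.021). Against Rapa they were Psmb4 (0.39), Psmb2 probe ILMN_2765890 (0.38), Psma4 (0.20), Psma5 (0.093) and Psmc4 (0.082), and in DR against Rapa it was Psmd4 (0.25). With quantile normalization the counts were 11 and 5, 8 and 5, 9 and 12, 0 and 3, 5 and 5, and 3 and 2, with 2 and 6 for the interaction.

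With the array SD as a covariate they were 13 and 7, 7 and 5, 14 and 13, 2 and 3, 6 and 2, and 5 and 1, with 2 and 7. With array weights they were 14 and 9, 7 and 8, 15 and 15, 2 and 3, 11 and 4, and 3 and 1, with 6 and 9. With the level of dim probes as a covariate they were 12 and 4, 8 and 4, 15 and 8, 3 and 2, 12 and 4, and 1 and 1, with 3 and 3. A median difference over 30% left 5 and 1, 3 and 4, 5 and 7, 0 and 0, 4 and 2, and 2 and 0. An adjusted p under 0.001 left 6 and 1, 4 and 1, 9 and 5, 0 and 0, 3 and 2, and 1 and 0, with 0 and 0. Only probes above background on every array gave 0 higher in Rapa + DR against DR, and no filter on dim probes gave 2 below the sum. The other counts of these 2 filters, and all counts of the methods' ANOVA and of the filter on at least 1 array, were within 1.5 times. Leaving out single mice was not run, since every group holds over 5. The cause of these shifts was not tested.

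Replicate numbers are shared between groups, but the mice of a number were not shown to be paired. The deviations of 67 same-number pairs correlated with a median of 0.04 (25 pairs over 0.1), against 0.01 for 726 other pairs (248 over 0.1). With the replicate block the counts were 12 and 4, 6 and 5, 15 and 9, 1 and 0, 10 and 5, and 4 and 0, with 1 and 2 for the interaction, so the block moved the lower calls in Rapa + DR against DR from 3 to 0 and those below the sum from 5 to 2.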
